A study of Mus musculus with 12 samples.

Results

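The integrated stress response run by the transcription factors ATF4 and CHOP was followed through 34 genes in BV-2 cells, an immortalised mouse microglial line. The genes are ATF4, CHOP (gene Ddit3), the factors and feedback regulators around them, and their targets in amino acid supply and elsewhere. A member was found through the RefSeq accession of its array probe, and where a gene had several probes the brightest on average across the 12 arrays was taken. Of the 34 genes, 33 had a probe and 31 were tested, out of 19318 genes and transcripts tested in all and 32665 represented on the array. No probe was matched to Pycr1, a proline synthesis enzyme. Cbs, which makes cystathionine, and Fgf21, a secreted stress hormone, were not well above background on any array. Each of the 31 tested members was well above background on all 12 arrays.

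When a cell senses unfolded protein, lack of amino acids, haem deficiency or double-stranded RNA, a kinase phosphorylates the translation factor eIF2. General protein synthesis then slows, while the ATF4 message is translated better. ATF4 induces CHOP, enzymes that make amino acids, amino acid transporters and, through Ppp1r15a, the phosphatase subunit that reverses the eIF2 mark. In microglia the pathway meets the inflammatory response to lipopolysaccharide (LPS), a bacterial cell wall component sensed by Toll-like receptor 4.

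The study set 4 groups of BV-2 cells side by side, each with 3 arrays: LPS with curcumin, curcumin alone, LPS alone, and no treatment. Curcumin, the yellow polyphenol of turmeric, was given at 20 µM and LPS at 100 ng/ml, and the treatments lasted 6 h. The labels name neither a vehicle for the untreated cells nor separate cultures for the replicates, so the p-values measure the spread between these arrays, which may be technical. BV-2 is a single transformed line. Every slide held 1 array of each group and each group always took the same position on its slide, so group and position cannot be told apart.

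Of 8 microglial markers with a probe, 7 were well above background on all 12 arrays and Cx3cr1 on 11, while the astrocyte genes Gfap and Aldh1l1, the neuronal gene Snap25 and the endothelial gene Cdh5 were above it on none. The summed processed signal of the microglial markers was 63698 to 101972 in LPS+curcumin, 87562 to 120922 in curcumin, 92200 to 118760 in LPS and 102545 to 147766 in untreated arrays. The summed signal of the fibroblast and endothelial markers was 96.5 to 118 in curcumin and 53.4 to 75.5 in untreated arrays, and 1 of these 5 markers, Col1a2, was above background on every array. The part of these markers in the results was not tested. One array stood apart: averaged over the arrays of a group, LPS+curcumin replicate 1 correlated by 0.982 with LPS and by 0.950 with curcumin. LPS+curcumin replicates 2 and 3 correlated by 0.984 and 0.985 with curcumin and by 0.940 and 0.923 with LPS. The software called 1594 spots of LPS+curcumin replicate 2 outliers (163 or fewer elsewhere), and Ddit3, Shmt2, Mthfd2, Slc7a1 and Slc38a2 have no value there. Changes and counts that rest on LPS+curcumin are therefore also given without replicate 1, from a limma fit of the other 11 arrays, in which Ddit3, Shmt2, Mthfd2, Slc7a1 and Slc38a2 have 1 LPS+curcumin value.

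ATF4 acts on C/EBP-ATF response elements, and the promoter windows of the members (250 bases before to 50 after the annotated start, RefSeq, build GRCm38.p6) were searched on both strands for the core TGATGNAA of that element. It was found in 8 of the 31 members with a window (25.8%), against 4.51% of 27025 genes. The 8 are Trib3, Atf3, Nupr1, Asns, Pycr1, Slc1a4, Chac1 and Fgf21. A cAMP response element, TGACGTCA, was found in 1 of 31 members (3.23%), Ppp1r15a, against 2.03% of genes. Below are the upstream stretches of 5 members whose values the results turn on, 5′ to 3′ on the strand of the gene, with the match in capitals. In Atf3, Nupr1 and Chac1 the match lies on the opposite strand and so reads TTGCATCA. A match is a description of the sequence and was not tied to any measured change.
Atf3, chr1:191183406-191183473, minus strand: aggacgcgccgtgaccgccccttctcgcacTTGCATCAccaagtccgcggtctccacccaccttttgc
Nupr1, chr7:126625543-126625610, minus strand: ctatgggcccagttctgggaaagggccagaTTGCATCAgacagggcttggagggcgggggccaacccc
Chac1, chr2:119351019-119351086, plus strand: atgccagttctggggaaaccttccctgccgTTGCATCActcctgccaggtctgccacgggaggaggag
Asns, chr6:7693210-7693262, minus strand: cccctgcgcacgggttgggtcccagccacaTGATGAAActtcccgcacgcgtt
Ppp1r15a, chr7:45526269-45526310, minus strand: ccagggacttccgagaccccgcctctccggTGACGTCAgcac

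Levels below are log2 signals relative to each array's 75th percentile, given for replicates 1, 2 and 3 in that order. They compare arrays for 1 gene and not genes with each other. A gene was called when its Benjamini-Hochberg adjusted p in limma, fitted over all genes tested, was below 0.05.

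On the 75th percentile scaling, curcumin alone raised the message of most regulators of this response after 6 h. CHOP, the pseudokinase Trib3 and the leucine sensor Sesn2 were up 10.4-fold, 9.64-fold and 7.92-fold. Of the tested genes of amino acid synthesis and transport, 4 of 15 were called. Of the 31 tested members, 17 were higher (54.8%) and 0 were lower in curcumin than in untreated cells, where 21.9% of all genes tested were higher and 7.27% lower. At an unadjusted p below 0.05, 23 members were higher and again 0 lower, against 34.8% and 12% of all genes. All 3 curcumin arrays lay above all 3 untreated arrays in 23 members, as in 47.5% of all genes. By role, 10 of 12 regulators, 3 of 9 synthesis enzymes, 1 of 6 transporters and 3 of 4 other targets were higher. The median log2 change was 0.97 over the members and 0.41 over all genes, and 25 of 31 members lay above the all-gene median. On a scaling by spike-in probes, described below, 4 of the 12 regulators were higher and 0 lower, against 7.23% and 43.3% of all genes.

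Among the regulators Ddit3, Trib3 and Sesn2 had the widest changes. Ddit3 (CHOP) had 2.32, 2.07 and 2.72 in curcumin, against -1.12, -1.18 and -0.72 in untreated cells, a log2 change of 3.38 ± 0.34 (SE, adjusted p = 0.000445, limma). Trib3, which binds and restrains ATF4 and CHOP, had 4.79, 4.66 and 5.13 in curcumin, against 1.37, 1.24 and 2.15 in untreated cells, a change of 3.27 ± 0.31. All 3 curcumin arrays lay far above all untreated arrays for both genes. Sesn2, a stress-induced inhibitor of the growth kinase complex mTORC1, had 4.14, 3.95 and 4.42 in curcumin, against 0.75, 1.21 and 1.59 in untreated cells (change 2.99 ± 0.38). Ppp1r15a (GADD34), which brings a phosphatase to eIF2, had 2.95, 2.95 and 3.44 in curcumin, against 0.27, 0.36 and 0.89 in untreated cells (change 2.61 ± 0.56). The groups did not overlap for either gene, and within each slide both changes had the same sign.

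Atf4 itself was called as well. It had 3.67, 3.87 and 4.15 in curcumin, against 2.32, 2.62 and 3.04 in untreated cells, a change of 1.24 ± 0.24 (adjusted p = 0.00462, limma). Nupr1, a small stress-induced chromatin protein, had 3.50, 3.41 and 3.60 in curcumin, against 1.98, 1.20 and 1.57 in untreated cells (change 1.92 ± 0.35). Atf3, a bZIP factor induced by ATF4, had 5.36, 4.36 and 4.94 in curcumin, against 3.82, 3.22 and 3.43 in untreated cells (change 1.40 ± 0.35). Every curcumin array was above every untreated array for these genes. Cebpg, which dimerises with ATF4, had 0.59, 0.84 and 1.30 in curcumin, against -0.50, -0.55 and -0.29 in untreated cells (change 1.36 ± 0.31). Eif4ebp1, a brake on cap-dependent translation, rose by 1.30 ± 0.20 and Atf5, a bZIP factor whose translation is controlled like that of ATF4, by 0.85 ± 0.22. The other 2 regulators were not called: Ddit4 (REDD1, an mTORC1 inhibitor) differed by 0.06 ± 0.25 and Cebpb, another dimer partner, by 0.01 ± 0.46, and for both the arrays of the groups overlapped. The calls of Atf3, Atf5 and Cebpg were lost on leaving out any 1 of 3, 4 and 1 of the 12 arrays.

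Among the synthesis enzymes, Cth, which makes cysteine from cystathionine, had -0.49, -0.13 and 0.12 in curcumin, against -1.53, -1.69 and -0.72 in untreated cells (change 1.15 ± 0.34, adjusted p = 0.0289, limma). Shmt2, the mitochondrial serine hydroxymethyltransferase, rose by 0.90 ± 0.25 and Aldh18a1, which starts proline synthesis, by 0.89 ± 0.24. The calls of Cth, Shmt2 and Aldh18a1 were lost on leaving out any 1 of 4, 5 and 3 arrays. Asns, asparagine synthetase and a textbook ATF4 target, had 6.18, 6.32 and 6.89 in curcumin, against 5.51, 5.61 and 5.88 in untreated cells. Its arrays did not overlap, yet its difference of 0.80 ± 0.28 missed the threshold (adjusted p = 0.0525, limma). The serine enzymes Phgdh, Psat1 and Psph differed by 0.78 ± 0.27, 0.66 ± 0.35 and 1.02 ± 0.45, and none was called, although Phgdh lay close to the threshold (adjusted p = 0.0508, limma). Mthfd2, of mitochondrial one-carbon metabolism, differed by 0.95 ± 0.39 and Gpt2, an alanine transaminase, by 0.23 ± 0.30.

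Of the transporters, Slc3a2 (the heavy chain shared by several amino acid exchangers) was called. It had 6.49, 6.32 and 6.59 in curcumin, against 5.56, 5.32 and 5.62 in untreated cells, a change of 0.97 ± 0.17 (adjusted p = 0.00354, limma). Its light-chain partner Slc7a5 (LAT1) had 2.55, 3.15 and 3.49 in curcumin, against 2.40, 2.81 and 2.97 in untreated cells. The groups overlapped, and the difference was 0.33 ± 0.34 (adjusted p = 0.444, limma). Slc1a4 (a neutral amino acid exchanger), Slc6a9 (a glycine transporter) and Slc38a2 (the amino acid-responsive transporter SNAT2) differed by 1.15 ± 0.44, 0.78 ± 0.43 and 0.68 ± 0.28 and were not called. Slc7a1, the cationic amino acid transporter, differed by 0.00 ± 0.20 on its brightest probe, but a second probe of the same transcript gave 1.87 (adjusted p = 0.000732, limma, over probes) and in LPS+curcumin against LPS 1.65 (adjusted p = 0.00182), so its direction depends on the probe. Of 10 members with several tested probes, 0 had probes called in opposite directions on the 75th percentile scaling. Cebpg, Phgdh, Slc7a1 and Vegfa had probes that differed in call on it.

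The other targets included the widest change of the set. Chac1, which degrades glutathione, had -1.75, -1.29 and 0.16 in curcumin, against -6.22, -5.46 and -3.29 in untreated cells, a change of 4.03 ± 0.88 or 16.3-fold (adjusted p = 0.00857, limma). Its size rests on single arrays: the fold was 10.6 without untreated replicate 1 and 29.4 without untreated replicate 3, and the call held in all 12 fits with 1 array left out. The untreated signal was above background on all 3 arrays but faint, with a mean of -4.99, so the fold has a small denominator. Vegfa, the angiogenic growth factor, had 2.87, 3.00 and 3.41 in curcumin, against 1.30, 0.96 and 1.70 in untreated cells (change 1.77 ± 0.35). Gadd45a, a growth arrest gene, had 0.45, 0.28 and 0.13 in curcumin, against -0.77, -1.39 and -1.12 in untreated cells (change 1.38 ± 0.21). For these genes all 3 curcumin arrays were above all untreated arrays, and the lowest Chac1 values were those of untreated replicates 1 and 2. Stc2, a secreted glycoprotein, differed by 0.17 ± 0.27.

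**Figure D1:**
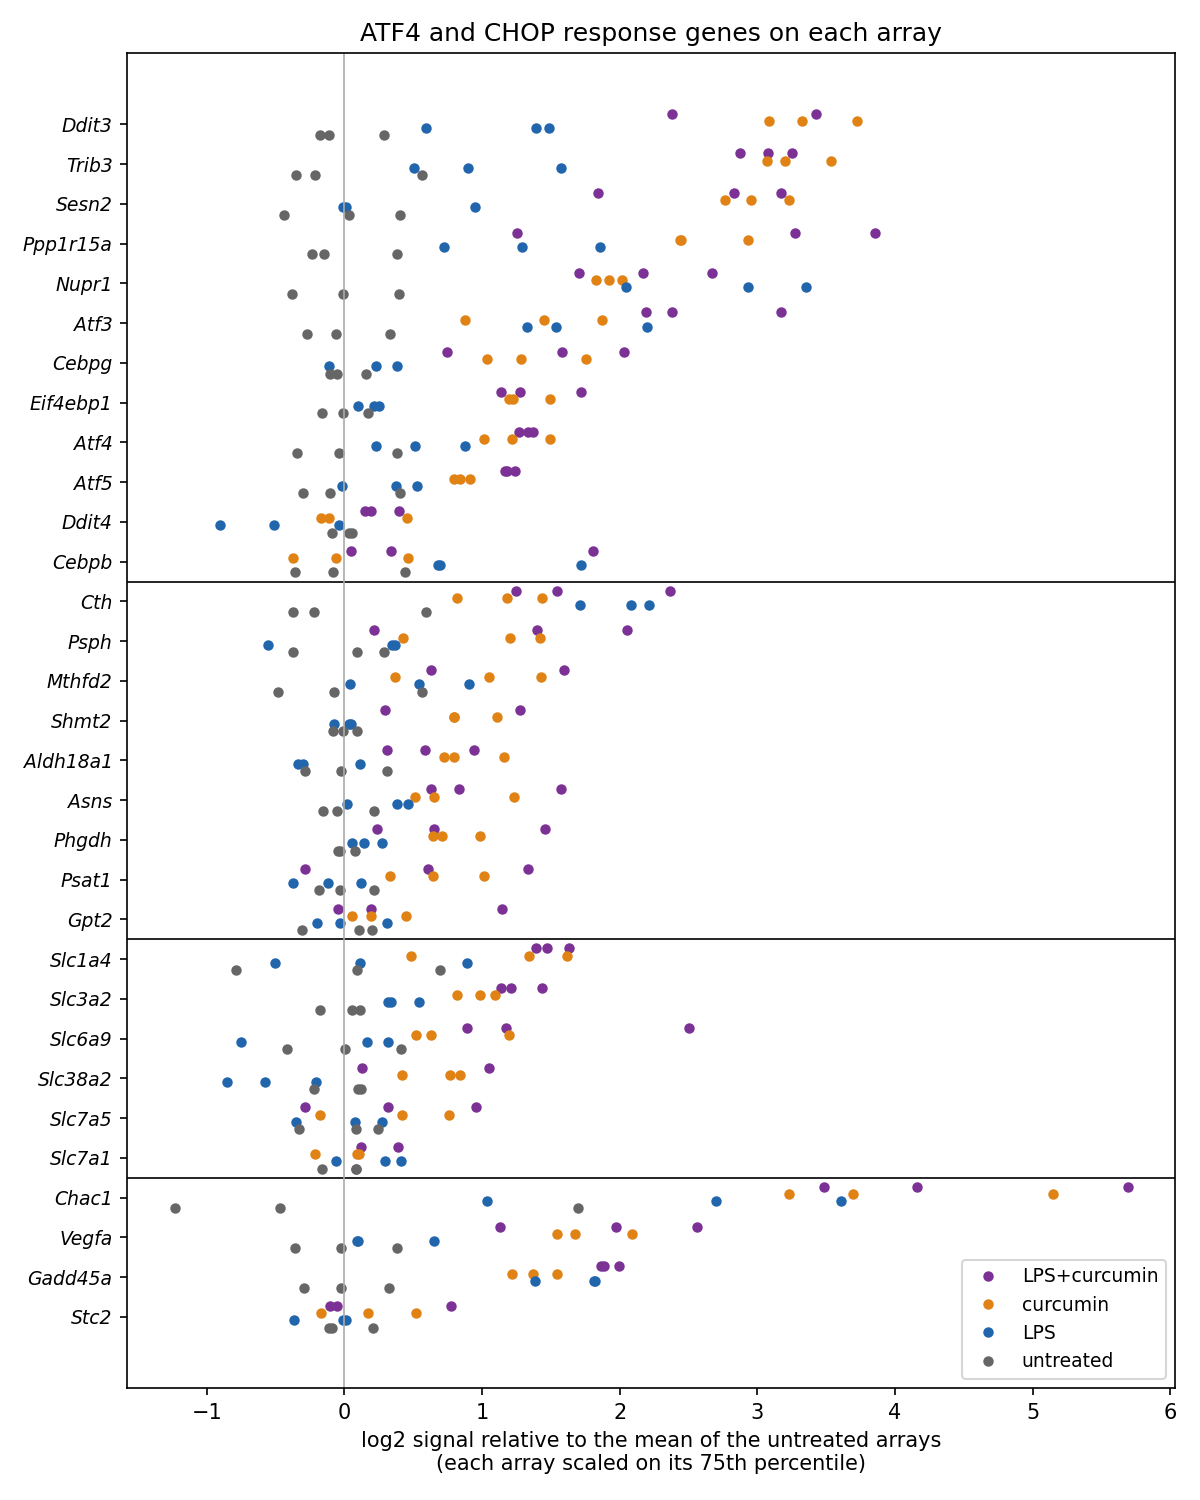
Each row is 1 tested member and each point 1 array, as the log2 signal minus the mean of the untreated arrays; lines separate regulators, synthesis enzymes, transporters and other targets. The curcumin and LPS+curcumin points of Ddit3, Trib3 and Sesn2 stand apart from the untreated ones, whereas the points of Slc7a5, Slc7a1 and Stc2 overlap between groups.

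Taking the replicate number, which is the slide, as a block raised the count called in curcumin to 24 of 31, against 31.2% of all genes. The amino acid genes then numbered 11 of 15 called (8 of 9 synthesis enzymes and 3 of 6 transporters), the regulators 10 of 12 and the other targets 3 of 4. Asns had an adjusted p of 0.00946 and Psph one of 0.00927 in that limma fit.

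The calls also depended on the scaling. On the curcumin arrays the 75th percentile lay 2.01 to 2.32 log2 units below the Agilent E1A spike-in probes, against 0.94 to 1.26 units below them on the untreated arrays, so scaling on the spike-ins lowers every curcumin-to-untreated change by 1.10. The RNA amount per array is not stated, and fewer cells and less RNA per cell cannot be told apart in such bulk samples. On the spike-in scaling the median of all genes was -0.69 and that of the members -0.14, and 6 members were higher and 3 lower, against 7.23% of all genes higher and 43.3% lower. Ddit3, Trib3, Sesn2, Ppp1r15a, Chac1 and Vegfa were the 6 higher members, with changes of 2.27, 2.17, 1.88, 1.50, 2.92 and 0.67. Those 6 were called higher on all 5 scalings tried, as were 6.7% of all genes. Slc7a5, Slc7a1 and Stc2 were the 3 lower members, at -0.77, -1.11 and -0.93, but the second probe of Slc7a1 was higher on that scaling, by 0.76 (adjusted p = 0.0237, limma, over probes). The sign of 16 members that were above 0 on the 75th percentile scaling turned on the spike-in scaling, and 4 of these, Atf5, Shmt2, Aldh18a1 and Slc3a2, were among the 17 called. Atf4 had 0.14 ± 0.32 on the spike-in scaling (adjusted p = 0.709, limma) and Asns -0.30, so whether these genes rose in absolute signal depends on the scaling.

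**Figure D2:**
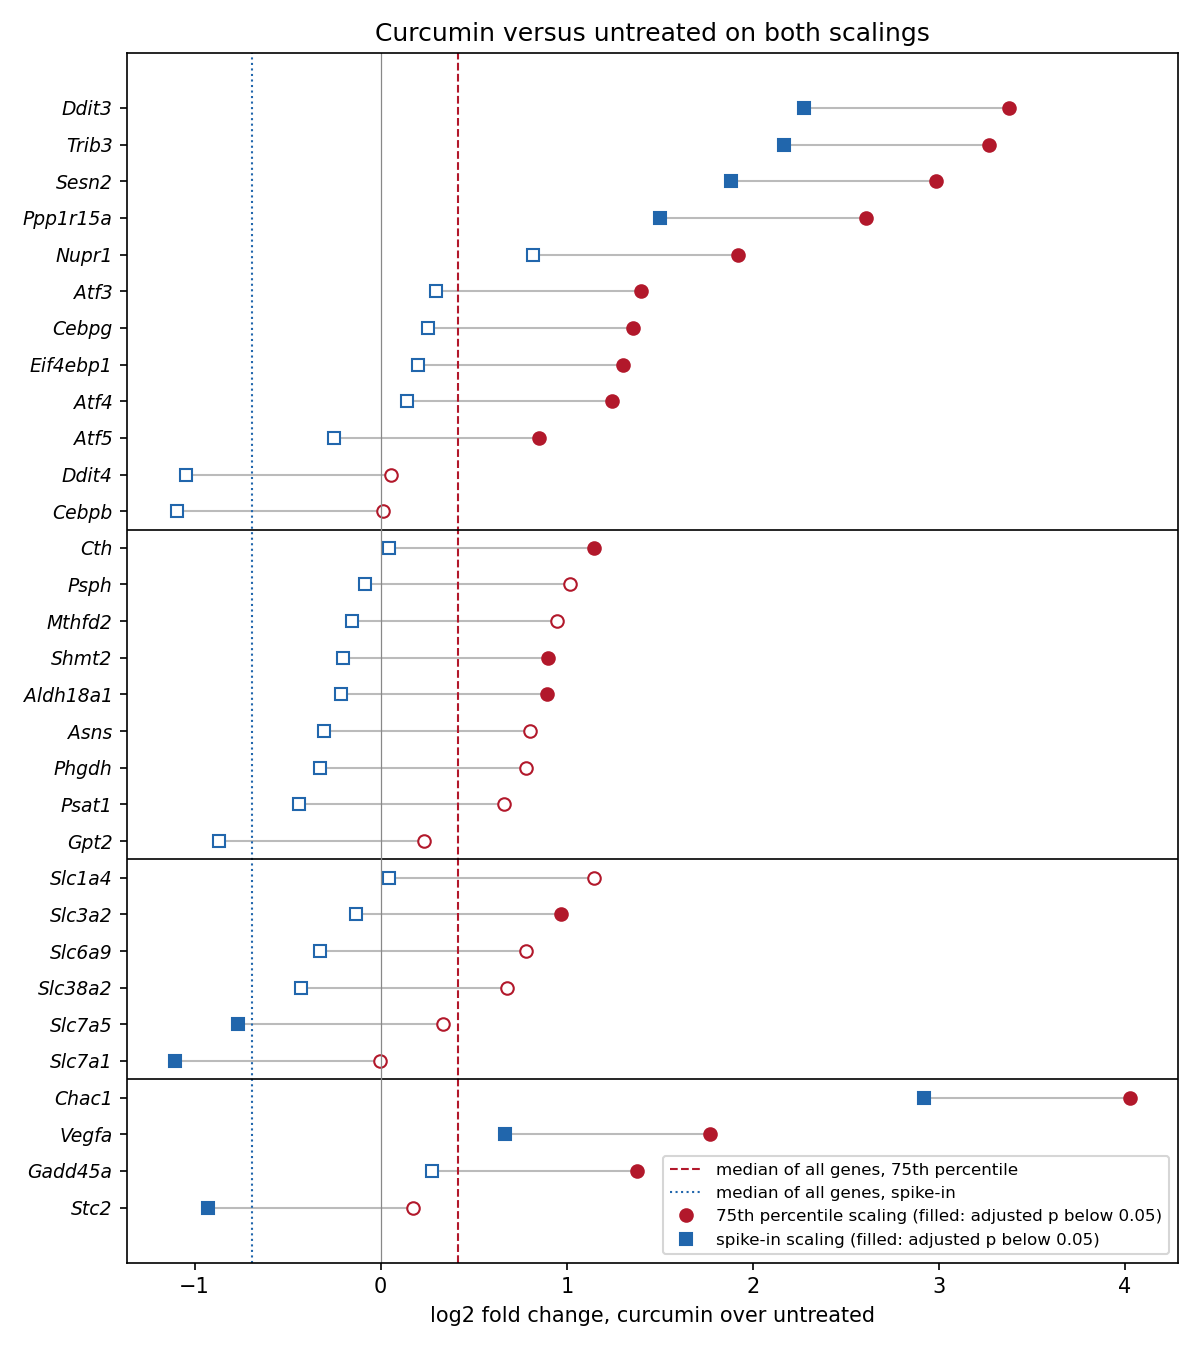
The log2 change in curcumin over untreated cells is shown for each member on the 75th percentile scaling (circles) and the spike-in scaling (squares), filled where the adjusted p was below 0.05, with dashed and dotted lines at the medians of all genes (0.41 and -0.69). The order of the members is the same on both, and 6 members are filled to the right of 0 on both.

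LPS alone touched few members. Of 31, 4 were higher (12.9%) and 0 lower in LPS than in untreated cells, against 4.12% and 1.61% of all genes tested. At an unadjusted p below 0.05, 11 were higher and 0 lower, against 8.71% and 6.91% of all genes. All LPS arrays lay above all untreated arrays in 8 members, against 16.8% of all genes. Nupr1 had 4.94, 4.52 and 3.63 in LPS, against 1.98, 1.20 and 1.57 in untreated cells, a change of 2.78 ± 0.35 or 6.86-fold (adjusted p = 0.000594, limma). Cth had 0.40, 0.90 and 0.77 in LPS, against -1.53, -1.69 and -0.72 in untreated cells, a 4.01-fold rise (log2 SE 0.34, adjusted p = 0.0043, limma). These groups did not overlap. Atf3 had 5.69, 4.81 and 5.02 in LPS, against 3.82, 3.22 and 3.43 in untreated cells (change 1.69 ± 0.35). Gadd45a had 0.72, 0.73 and 0.29 in LPS, against -0.77, -1.39 and -1.12 in untreated cells (change 1.67 ± 0.21). The call of Atf3 was lost on leaving out any 1 of 3 arrays. Nupr1 was the only one of the 4 called on all 5 scalings, as were 1.73% of all genes in the higher direction.

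Of the named ATF4 and CHOP genes, Ddit3 had -0.41, 0.39 and 0.48 in LPS, against -1.12, -1.18 and -0.72 in untreated cells, without overlap, and its difference of 1.16 ± 0.34 was not called (adjusted p = 0.0863, limma). Atf4 had 2.89, 3.17 and 3.54 in LPS, against 2.32, 2.62 and 3.04 in untreated cells, and the groups overlapped (0.54 ± 0.24, adjusted p = 0.298, limma). Trib3 had 2.09, 2.49 and 3.16 in LPS, against 1.37, 1.24 and 2.15 in untreated cells (0.99 ± 0.31, adjusted p = 0.104, limma), with 1 LPS array below the highest untreated one. With the slide as a block, 8 members were called, against 5.26% of all genes, and the added ones were Ddit3, Trib3, Cebpb and Chac1. The amino acid genes other than Cth showed little: Asns had 5.68, 6.05 and 6.13 in LPS, against 5.51, 5.61 and 5.88 in untreated cells (0.29 ± 0.28), and Slc7a5 had 2.38, 2.81 and 3.00 in LPS, against 2.40, 2.81 and 2.97 in untreated cells (0.00 ± 0.34). The median difference of the amino acid genes was 0.05 over 15 genes, against 0.77 over 12 regulators and 0.00 over all genes.

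With LPS present, curcumin again went with higher levels of Sesn2, Trib3 and Ddit3. Calls for 3 transporters (Slc3a2, Slc6a9 and Slc38a2) were lost on quantile, median and spike-in scaling and when only the 2 groups were fitted. Of 31 members, 12 were higher (38.7%) and 0 lower in LPS+curcumin than in LPS, against 12.7% and 5.99% of all genes tested. At an unadjusted p below 0.05, 21 were higher and 0 lower, against 26.4% and 10.9% of all genes. The arrays of the groups did not overlap, LPS+curcumin being higher, in 17 members, against 19.4% of all genes. By role, 7 of 12 regulators, 1 of 9 synthesis enzymes, 3 of 6 transporters and 1 of 4 other targets were higher, and the median change was 0.79 over the members and 0.32 over all genes. Without LPS+curcumin replicate 1, 21 members were higher, against 40% of all genes (9 regulators, 10 amino acid genes and 2 other targets), and 0 were lower, against 14.8%. In that fit 22 were higher and 2 lower at an unadjusted p below 0.05, against 44.2% and 16.6% of all genes. The 2 lower were Cebpb and Nupr1, each at -0.84. The groups did not overlap, LPS+curcumin being higher, in 25 members, against 48.5% of all genes. The median change was then 1.09 over the members and 0.47 over all genes. With the slide as a block 19 were higher, against 20.1%.

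Sesn2 had 3.03, 4.01 and 4.36 in LPS+curcumin, against 1.19, 1.18 and 2.14 in LPS, a change of 2.30 ± 0.38 (adjusted p = 0.00387, limma) and of 2.68 without LPS+curcumin replicate 1. Trib3 had 4.67, 4.46 and 4.84 in LPS+curcumin, against 2.09, 2.49 and 3.16 in LPS (change 2.08 ± 0.31, and 2.07 without that array). Ddit3 had 1.37 and 2.42 in LPS+curcumin replicates 1 and 3, against -0.41, 0.39 and 0.48 in LPS (change 1.75 ± 0.38, and 2.27 on the 1 array left without replicate 1). These 3 regulators had no overlap between the groups and were called higher on all 5 scalings, as were 3.35% of all genes. None of the 3 was called with normexp background correction. Without replicate 1 the members called on all 5 scalings were Trib3, Sesn2, Ppp1r15a and Vegfa, as were 7.81% of all genes. The call of Ddit3 was lost without LPS+curcumin replicate 3, and its call and that of Sesn2 were lost when only the 2 groups were fitted.

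Cebpg had 0.30, 1.13 and 1.58 in LPS+curcumin, against -0.56, -0.22 and -0.07 in LPS (change 1.29 ± 0.31, and 1.64 without replicate 1). Eif4ebp1 had 5.35, 5.21 and 5.79 in LPS+curcumin, against 4.17, 4.29 and 4.33 in LPS (change 1.19 ± 0.20, and 1.24 without it). Atf5 had 3.23, 3.29 and 3.22 in LPS+curcumin, against 2.03, 2.42 and 2.58 in LPS (change 0.90 ± 0.22, and 0.91 without it). The LPS+curcumin arrays were above the LPS arrays in each case. Atf4 had 3.92, 3.99 and 4.03 in LPS+curcumin, against 2.89, 3.17 and 3.54 in LPS, a change of 0.78 ± 0.24 (adjusted p = 0.0431, limma) and of 0.81 without replicate 1 (adjusted p = 0.0223, limma). The Atf4 call was lost on leaving out any 1 of 8 of the 12 arrays, on quantile, median and spike-in scaling, without the filter on dim probes and when only the 2 groups were fitted. Calls of Atf5, Cebpg and Eif4ebp1 were lost on median and spike-in scaling and when only the 2 groups were fitted, and those of Atf5 and Cebpg on leaving out any 1 of 3 and 4 arrays. Atf3 had 5.68, 5.86 and 6.66 in LPS+curcumin, against 5.69, 4.81 and 5.02 in LPS, and was not called (0.89 ± 0.35, adjusted p = 0.0912, limma), but without LPS+curcumin replicate 1 it differed by 1.09 (adjusted p = 0.0266, limma). Ppp1r15a had 1.76, 3.78 and 4.36 in LPS+curcumin, against 2.36, 1.23 and 1.80 in LPS. Replicate 1 was the low array among the LPS+curcumin values, and leaving it out took the difference of 1.50 ± 0.56 (adjusted p = 0.0793, limma) to 2.28 (adjusted p = 0.000335, limma).

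Among the amino acid genes, Slc3a2 had 6.71, 6.64 and 6.93 in LPS+curcumin, against 6.04, 5.82 and 5.84 in LPS (change 0.86 ± 0.17, adjusted p = 0.00954, limma, and 0.89 without LPS+curcumin replicate 1). Slc6a9 had 4.75, 3.43 and 3.15 in LPS+curcumin, against 1.50, 2.42 and 2.57 in LPS (change 1.61 ± 0.43), and its replicate 1 was the high array: without it the change was 1.13. Slc38a2 had 4.74 and 5.67 in LPS+curcumin replicates 1 and 3, against 3.76, 4.04 and 4.41 in LPS (change 1.14 ± 0.31, and 1.60 without replicate 1). That change rests on dropping the outlier-marked spot of LPS+curcumin replicate 2: with the spot kept, the difference was -0.13 (adjusted p = 0.910, limma). Aldh18a1 differed by 0.79 ± 0.24 (adjusted p = 0.0439, limma) and by 0.94 without replicate 1. Its call held without that array (adjusted p = 0.00843, limma) but was lost on leaving out any 1 of the other 11 arrays, on median and spike-in scaling, without the filter on dim probes and when only the 2 groups were fitted. Asns had 6.30, 6.50 and 7.24 in LPS+curcumin, against 5.68, 6.05 and 6.13 in LPS, without overlap, and its 0.72 ± 0.28 was not called, whereas without replicate 1 it differed by 0.91 and was called (adjusted p = 0.0190, limma). Slc7a5 had 2.45, 3.05 and 3.69 in LPS+curcumin, against 2.38, 2.81 and 3.00 in LPS, and the groups overlapped (0.33 ± 0.34). Without replicate 1 its groups did not overlap, and the difference of 0.64 was not called (adjusted p = 0.110, limma). Psat1, Phgdh, Psph and Slc1a4 were not called over all arrays but were without replicate 1, at 1.09, 0.90, 1.67 and 1.27. Shmt2 was not called over all arrays, and differed by 1.28 on the 1 array left without replicate 1. That value too rests on dropping the outlier-marked spot of LPS+curcumin replicate 2, which read -1.81, against 4.42 to 4.55 in LPS. The calls of Slc6a9 and Slc38a2 were lost on leaving out any 1 of 3 and 7 of the 12 arrays.

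Of the other targets, Vegfa had 2.45, 3.30 and 3.88 in LPS+curcumin, against 1.42, 1.42 and 1.97 in LPS (change 1.61 ± 0.35, adjusted p = 0.0127, limma, and 1.99 without replicate 1). Its call was lost without LPS replicate 2 or LPS+curcumin replicate 2. It was also lost on median scaling, with normexp background correction and when only the 2 groups were fitted. Chac1 had -1.50, -0.83 and 0.70 in LPS+curcumin, against -3.95, -2.29 and -1.38 in LPS, and this 3.99-fold difference (log2 SE 0.88) was not called. Without replicate 1 the log2 difference of Chac1 was 2.48 and was called (adjusted p = 0.0451, limma). Of the genes called in LPS against untreated cells, Nupr1 differed by -0.60 ± 0.35, Cth by -0.28 ± 0.34 and Gadd45a by 0.24 ± 0.21 between LPS+curcumin and LPS, and none was called. Without replicate 1 they differed by -0.84, -0.60 and 0.20, again with no call.

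The effect of curcumin was compared with and without LPS. In 27 of 31 members (87.1%) the change was positive in both comparisons, which share no arrays, against 61.6% of all genes. On the spike-in scaling 16 members turned from above to below 0 without LPS and 8 with it. The all-gene medians on that scaling were -0.69 and -0.40. Higher calls in both were made for 10 members (32.3%), against 10.2% of all genes, with 7 called without LPS but not with it, and 2 (Slc6a9 and Slc38a2) with LPS but not without it, which does not show that these genes differ between the comparisons. In 21 members (67.7%) the change was smaller with LPS, near the 59.4% of all genes. That count depends on the scaling: on the spike-in scaling 11 of the 21 had a higher change with LPS than without it. The median of the change with LPS minus that without it was then 0.28 over the members and 0.30 over all genes. Without LPS+curcumin replicate 1 the change was positive in both for 27 members, against 62.5% of all genes, called higher in both for 20, against 30.5%, and smaller with LPS for 15, against 44.4%. A difference between the comparisons, the interaction, was called for 1 member, Nupr1, against 0.709% of all genes with a lower and 0.0207% with a higher value. Nupr1 differed by -0.60 with LPS and by 1.92 without it, so that the interaction was -2.52 ± 0.49 (adjusted p = 0.0469, limma). Its level was 4.25, 3.29 and 3.75 in LPS+curcumin, 3.50, 3.41 and 3.60 in curcumin and 4.94, 4.52 and 3.63 in LPS, against 1.98, 1.20 and 1.57 in untreated cells. The call was lost when any 1 of 10 of the 12 arrays was left out and on quantile, median and spike-in scaling. Without LPS+curcumin replicate 1 it held, at -2.76 (adjusted p = 0.00945, limma). Ddit3 had an interaction of -1.63 ± 0.51 (adjusted p = 0.327, limma), Trib3 one of -1.19 ± 0.44 (adjusted p = 0.513, limma), and Gadd45a one of -1.14 ± 0.29 (adjusted p = 0.168, limma). None of these was called, nor was any of them without replicate 1, where Ddit3 had -1.10 and Gadd45a -1.18.

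LPS+curcumin was also set against curcumin. In limma, 0 of 31 members were called between them, where 0.202% of all genes were called higher and 0.0104% lower. At an unadjusted p below 0.05, 2 members were higher and 0 lower, against 2.88% and 2.96% of all genes. Without LPS+curcumin replicate 1 the members called were again 0. The differences ran from -0.47 (Ddit3) to 1.18 (Atf3), and without that array from -0.21 (Trib3) to 1.37 (Atf3). Atf3 had 5.68, 5.86 and 6.66 in LPS+curcumin, against 5.36, 4.36 and 4.94 in curcumin, without overlap, and its 1.18 ± 0.35 was not called (adjusted p = 0.514, limma).

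**Figure D3:**
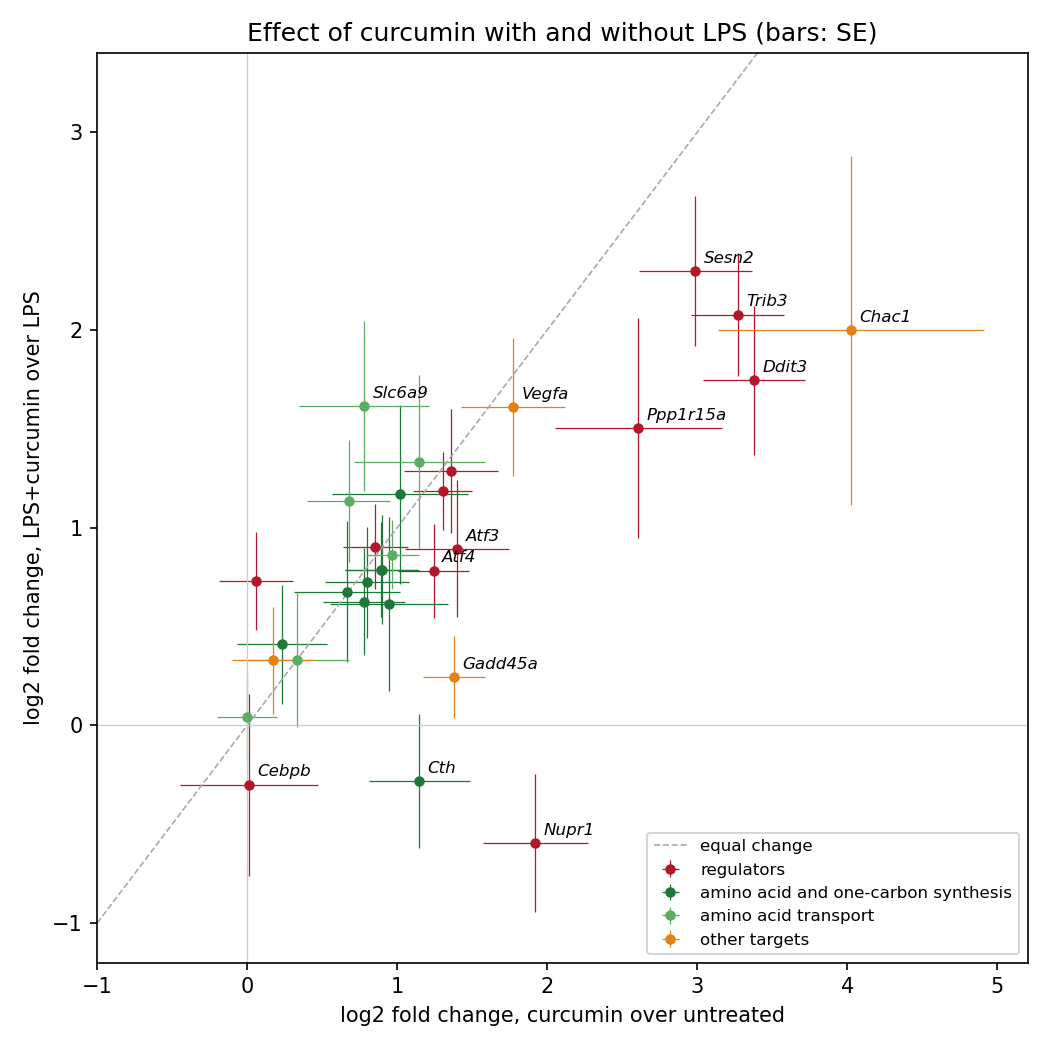
The log2 change in LPS+curcumin over LPS (vertical axis) is plotted against that in curcumin over untreated (horizontal axis) for the 31 tested members, with standard errors as bars and a dashed line for equal change. Trib3, Ddit3 and Chac1 lie to the right of the line, and Nupr1 and Cth lie below 0 on the vertical axis.

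Regulators were next set against the 15 tested genes of amino acid synthesis and transport. Where all values are present, a single scaling factor per array cancels in the difference of these medians, so the 75th percentile and spike-in scalings give the same difference. In curcumin against untreated cells the regulators' median change was 1.38 and that of the amino acid genes 0.80, a difference of 0.58, which was 0.64, 0.57 and 0.70 within slides 1, 2 and 3. In LPS against untreated cells the medians were 0.77 and 0.05, a difference of 0.71 (0.63, 0.61 and 0.57 within the slides). In LPS+curcumin against LPS they were 1.04 and 0.72, a difference of 0.32 that was less even between slides (0.46, 0.19 and 0.72) and was 0.22 without LPS+curcumin replicate 1. In LPS+curcumin against curcumin the difference was -0.06, with both signs among the slides, and -0.19 without that array. The role groups were assigned from what the genes are known to do, but with earlier results of these data known. These medians therefore describe the groups and carry no test.

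**Figure D4:**
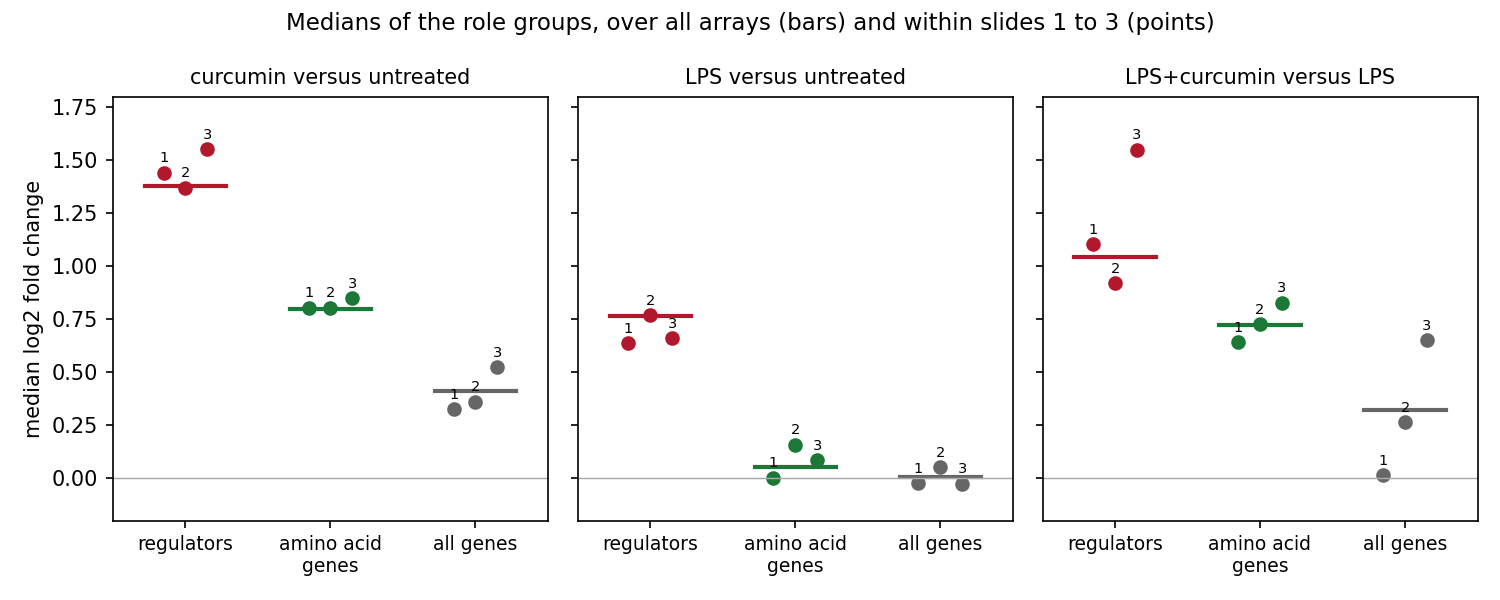
Median log2 changes of the 12 regulators, the 15 amino acid genes and all genes tested are shown for 3 comparisons, over all arrays (bars) and within each slide (numbered points; members with no value on an array are left out there). The regulators' points lie above those of the amino acid genes on every slide in all 3 comparisons.

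Neighbouring genes of the pathway were read from wider lists. Of 13 tested genes for eIF2, its kinases, its exchange factor and its phosphatase, 4 were higher in curcumin than in untreated cells (21.9% of all genes were): Eif2ak3 (PERK) by 0.76 ± 0.25, the eIF2 subunit Eif2s3x by 0.89 ± 0.30, the exchange factor subunit Eif2b5 by 0.80 ± 0.27, and Ppp1r15b, the constitutive partner of the eIF2 phosphatase, by 2.97 ± 0.60. In LPS against untreated cells 1 of 13 was higher, against 4.12% of all genes. It was Eif2ak2 (PKR, the kinase that senses double-stranded RNA), by 2.51 ± 0.41. In LPS+curcumin against LPS Eif2ak2 fell by 3.24 ± 0.41, while Eif2ak3 rose by 1.30 ± 0.25 and Ppp1r15b by 2.12 ± 0.60 (-3.84, 1.60 and 3.03 without LPS+curcumin replicate 1). So 2 of the 13 were higher and 1 lower there, against 12.7% and 5.99% of all genes. Of 20 cytosolic aminoacyl-tRNA synthetases, which charge tRNAs and include ATF4 targets, 5 were higher in curcumin (Aars, Cars, Eprs, Kars and Sars, 0.64 to 1.10), 0 in LPS and 3 in LPS+curcumin over LPS (Aars, Eprs and Sars). The share in curcumin, 25%, was near the 21.9% of all genes. That in LPS+curcumin over LPS, 15%, was near the 12.7% of all genes, and in LPS 4.12% of all genes were higher. On the spike-in scaling 1 of the 13 eIF2 genes was higher and 5 lower in curcumin, and 0 of the 20 synthetases were higher and 7 lower, against 7.23% of all genes higher and 43.3% lower. Without LPS+curcumin replicate 1, 5 of the 13 were higher and 2 lower in LPS+curcumin over LPS. Of the 20 synthetases 7 were then higher and 0 lower, against 40% of all genes higher and 14.8% lower.

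Of 10 further tested targets, 3 were higher in curcumin than in untreated cells, against 21.9% of all genes: Gdf15, a secreted stress cytokine, by 2.50 ± 0.47, Bbc3 (PUMA, a pro-apoptotic protein) by 1.54 ± 0.32 and Ero1a, an oxidase of the endoplasmic reticulum, by 0.98 ± 0.33. In LPS against untreated cells Gdf15 rose by 3.82 ± 0.47, Slc7a11 (the cystine transporter) by 3.67 ± 0.74 and Gadd45b by 0.90 ± 0.20. In LPS+curcumin against LPS Bbc3 rose by 1.53 ± 0.35 and Jdp2, a bZIP repressor, fell by 1.34 ± 0.39 (2.21 and -1.90 without LPS+curcumin replicate 1). Of all genes, 4.12% were higher in LPS, and 12.7% were higher and 5.99% lower in LPS+curcumin over LPS. Of 10 genes of the ATF6 and XBP1 arm of the unfolded protein response, 3 were again higher in curcumin: the chaperone Hspa5 (BiP) by 0.69 ± 0.20, Herpud1 by 1.17 ± 0.22 and calreticulin (Calr) by 0.75 ± 0.24. In LPS against untreated cells Herpud1 rose by 1.12 ± 0.22, and in LPS+curcumin against LPS Hspa5 rose by 1.04 ± 0.20 and the co-chaperone Dnajb9 by 1.01 ± 0.30 (1.15 and 0.95 without that array). On the spike-in scaling 0 of the further targets were higher and 4 lower in curcumin. Of the ATF6 and XBP1 genes 0 were higher and 0 lower on it, where 7.23% of all genes were higher and 43.3% lower. Without LPS+curcumin replicate 1, 3 further targets and 7 ATF6 and XBP1 genes were higher in LPS+curcumin over LPS, against 40% of all genes. In that fit 1 further target (Jdp2) and 0 ATF6 and XBP1 genes were lower, against 14.8% of all genes.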

How the data were processed

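Cy3-labelled RNA of 12 BV-2 samples was measured on Agilent arrays of 1 colour, per the labels' protocols. The authors deposited scanner files whose processed signal is a background-subtracted intensity on a linear scale, per the file headers, from Agilent Feature Extraction 10.5.1.1 (headers) or 9.1 (submitters' processing notes). The deposited value table holds the same intensity within 0.397%. From these, log2 intensity minus each array's 75th percentile (304 to 979) was computed. Outlier-marked spots were dropped, spots of a probe averaged, and a probe tested if well above background (58.0% to 65.9% of spots) on all 3 arrays of at least 1 group. Probes were named through RefSeq accessions. Array number limits the precision.

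A model of 4 group means was fitted with limma 3.58.1 (lmFit, eBayes) in R 4.3.3 over all genes. P-values are two-sided, adjusted over 19318 genes, with errors as standard errors. The alternatives were quantile, median, spike-in (225 E1A spots) and always-detected scaling, normexp with offset 50, the value table, 2 filters, the slide as a block, fits of only the 2 groups, all probes averaged and arrays left out. Keeping outlier-marked spots was chosen after seeing the data. The files hold no mean signal column, so normexp used the median signal. The script was tested on simulated data.

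Same-numbered arrays share a slide per the headers. Their deviations correlated by 0.572, 0.218 and 0.333 (curcumin and untreated), 0.571, 0.241 and 0.526 (LPS and untreated), 0.504, 0.370 and 0.713 (LPS+curcumin and curcumin), and 0.177, 0.114 and -0.0191 (LPS+curcumin and LPS).

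The members, role groups and wider lists were chosen with earlier results of these data known. Per-array values are given for the 10 members with the widest called, non-overlapping change per comparison and for Atf4, Ddit3, Atf3, Trib3, Asns and Slc7a5.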

Additional observations from a re-analysis of the deposited data

Results flagged for a closer look

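The effect of curcumin on Nupr1 was called different between cells with and without LPS on the 75th percentile scaling. The interaction was -2.52 (adjusted p = 0.0469, limma), and Nupr1 was the 1 member of 31 called. That call was lost on quantile, median, spike-in and always-detected scaling, with normexp background, without the filter on dim probes and with outlier spots kept. Leaving out any 1 of 10 of the 12 arrays also lost it. Over the alternatives its value ran from -1.70 with normexp background (adjusted p = 0.694) to -2.88 without LPS replicate 3 (adjusted p = 0.0169), always negative.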

How the results depend on the processing

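Scaling and slide set how many members were called, and arrays left out moved it further. In curcumin against untreated cells the count of 17 was 7 with median scaling, 9 with spike-in scaling and 3 with normexp background, and ran from 0 to 24 with arrays left out. The 7 and the 9 each held 6 higher calls, whereas all 17 were higher. Calls over all genes, in either direction, numbered 5633 as reported, then 6429, 9757 and 873 in those settings. In LPS against untreated cells the count of 4 was 2 with median and 2 with spike-in scaling and 8 with the replicate block, and ran from 0 to 6 with arrays left out. All genes called there numbered 1107 as reported, then 659, 653 and 1505 in those settings. In LPS+curcumin against LPS the count of 12 was 3 with median scaling, 4 with spike-in scaling, 0 with normexp, 19 with the replicate block and 1 with only the 2 groups compared, and ran from 0 to 21 with arrays left out. All genes called there numbered 3620 as reported, then 4121, 3231, 89, 5577 and 300 in those settings. Each 0 in those ranges came from leaving out all 4 arrays of replicate 2, where all genes called numbered 20, 196 and 9 in the same order. Single arrays moved the count by over 1.5 times in curcumin against untreated cells (11 without curcumin replicate 3) and in LPS+curcumin against LPS (21 without LPS+curcumin replicate 1, 5 without its replicate 2, 7 without its replicate 3, and 6 and 5 without LPS replicates 1 and 2). All genes called then numbered 2501, and 10584, 1084, 2141, 1614 and 1327, in that order. The interaction count of 1 was 0 with quantile, median, spike-in and always-detected scaling, with normexp, without a filter and with outlier spots kept, 2 with the replicate block (Nupr1 and Chac1), and 0 to 1 with arrays left out. All genes called there numbered 141 as reported, then 72, 72, 55, 125, 2, 99, 129 and 229 in the order of those settings. Between LPS+curcumin and curcumin the count was 0 in each setting run. The difference of regulators and amino acid genes in curcumin against untreated cells was 0.80 with quantile scaling, 0.71 with normexp and 0.82 with the mean of all probes, and 0.48 to 0.73 with arrays left out. It was 0.45 to 0.74 in LPS against untreated cells, 0.21 to 0.50 in LPS+curcumin against LPS and -0.62 to -0.23 for the interaction with arrays left out. Between LPS+curcumin and curcumin it was 0.22 with normexp and -0.19 to 0.19 with arrays left out. In curcumin against untreated cells the sign of 16 members turned on spike-in scaling, of which 6 were called on one of the 2 scalings, Atf5 (-0.25), Shmt2 (-0.20), Aldh18a1 (-0.21), Slc7a5 (-0.77), Slc3a2 (-0.14) and Stc2 (-0.93), and the other 10 (-1.09 to -0.09) on neither, which follows from the shift of all genes by that scaling. Slc38a2 in LPS+curcumin against LPS turned to -0.13 with outlier spots kept. The cause of the other changes was not tested.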
